A study of Danio rerio with 3 samples.

Results

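The report follows 39 genes that cells use to carry out mitosis, measured in single cells of whole zebrafish larvae that had been dissociated in the presence of a nucleotide label. The genes were chosen by name from what is known of cell division, as a list of 40 symbols. Earlier results of these data were known when this list and the gene lists set beside it were chosen. Of these 40 symbols, 39 were found among the 28216 gene symbols of the count matrices, and only incenp, the scaffold of the chromosomal passenger complex, was not among them. The symbol ube2c stood for 2 gene identifiers, of which the second held 0, 3 and 11 UMIs in the 3 libraries, and their counts were summed.

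Wild-type zebrafish larvae, a model in which many tissues still grow at 48 h post fertilization (hpf), were pooled by 10 and dissociated with enzymes for 30 min at 37°C in a buffer with 10 mM 4-thiouridine (4sU). This uridine analog enters RNA that is made while it is present, and after treatment of the methanol-fixed cells with 10 mM iodoacetamide for 16 h a T at that position is sequenced as a C. For the unsorted library, cells were fixed directly after dissociation and a wash. For the FACS library, cells waited about 15 min on ice, were passed for 10 min through fluorescence-activated cell sorting (FACS) with gates on size and granularity only, fell into a cooled tube that again held 10 mM 4sU, and were then fixed. The iced library was treated in the same way and then kept for another 30 min on ice without 4sU. All 3 libraries received the label, so no unlabelled library served as background. Each preparation is 1 library of 1 pool, so there is no replicate error and no test between preparations could be made. Every interval below is a 95% interval for counting error only, exact Poisson for counts and exact Clopper-Pearson for shares. Differences between preparations are differences between these 3 libraries, and the preparation and the library cannot be told apart.

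The libraries held 11043, 4609 and 9550 cells with medians of 2402, 3143 and 3995 unique molecular identifiers (UMIs, one tag per captured RNA molecule) per cell, in the order unsorted, FACS, iced. Haemoglobin transcripts took 6.58, 11.2 and 6.68% of all UMIs. Of the cells with at least 3 mitosis genes in the unsorted library, 98.9% held a UMI of the contractile muscle list, as did 99.3% of the other cells, while in the FACS library 21.3% and 21.2% did. Pairs of libraries shared 11 to 28 cell barcodes. Levels are given as CPM, UMIs per 1000000 UMIs of the library. They were not divided by gene length, because each molecule is counted once from its 3′ end. In a mixture of cell types such as a whole larva, fewer dividing cells and fewer transcripts per dividing cell cannot be told apart in these sums.

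A dividing cell condenses its copied chromosomes, builds a spindle of microtubules, attaches every chromosome to it through kinetochores, and separates the copies once a checkpoint is satisfied. Cyclin-dependent kinase 1 with cyclins A and B starts this sequence, the Aurora and Polo kinases drive its steps, and the anaphase-promoting complex ends it by marking cyclins for destruction. Transcripts of most of these genes build up late in the cell cycle, after the DNA has been copied, and so they serve as markers of cells in G2 and M phase. In larvae of this age, dividing cells are known in the germinal zones of the brain, the margin of the retina, the pharyngeal arches and the skin.

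Together the 39 genes gave 69740, 32895 and 95808 UMIs, which is 1386 CPM (1376 to 1396) in the unsorted library, 1424 CPM (1409 to 1440) in the FACS library and 1565 CPM (1555 to 1575) in the iced library. Single genes ranged from bub1, a checkpoint kinase at 0.318, 0.520 and 0.719 CPM, to ube2c at 182, 159 and 167 CPM. The median member had 24.6, 29.1 and 34 CPM, while the median of all detected genes was 1.61, 1.91 and 1.75 CPM. The summed level in the FACS library was 1.03 times that in the unsorted library (1.01 to 1.04), and the level in the iced library was 1.13 times that in the unsorted library (1.12 to 1.14) and 1.1 times that in the FACS library (1.08 to 1.11). These sums over all cells lay close together. With equal weight of the cell types tabled in all libraries, which leaves out the clusters named for proliferation, the sums were instead 1202, 693 and 772 RPM (reads per 1000000 reads), and the unsorted library was the highest.

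**Figure D1:**
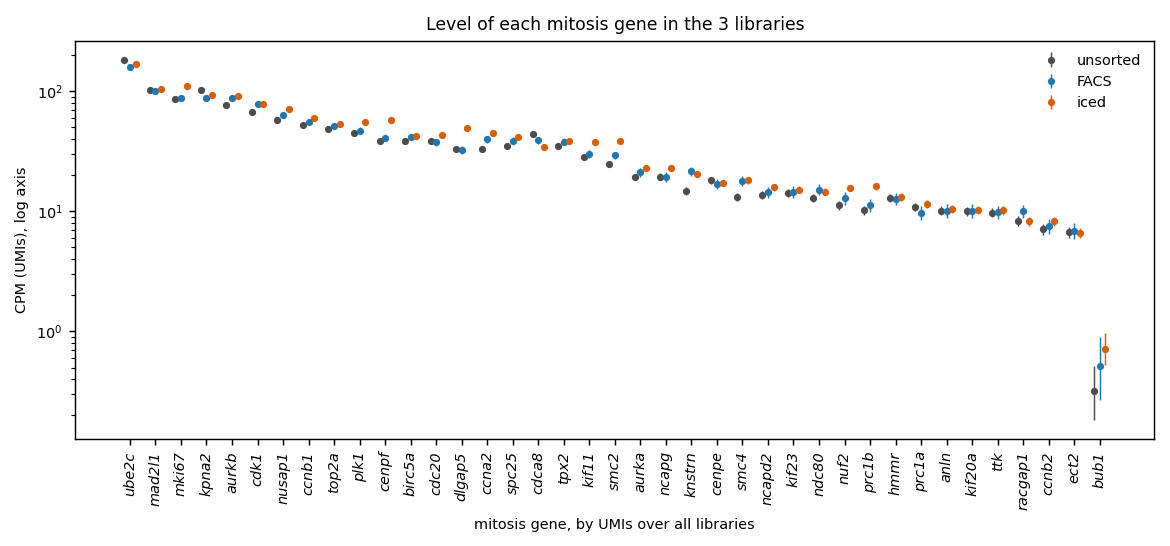
Level of each mitosis gene in each library, in CPM on a log axis, with genes ordered by their UMIs over all libraries and bars for the 95% Poisson interval (counting error only). The 3 points of a gene lie close to each other for nearly every gene, from ube2c at 182, 159 and 167 CPM down to ect2 at 6.68, 6.88 and 6.61 CPM, and bub1 stands apart below 1 CPM.

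The members that start mitosis, namely Cdk1, its cyclins, the kinases aurka and plk1 and the proliferation marker mki67, summed to 309, 336 and 377 CPM. The gene mki67 encodes the protein Ki-67, which coats mitotic chromosomes and is the usual marker of cycling cells. It stood at 85.2 CPM (82.7 to 87.8) in the unsorted library, 88.2 (84.4 to 92.1) in the FACS library and 109 (106 to 112) in the iced library, so that the last library lay above the others, whose intervals overlap. The kinase gene cdk1 had 67.1, 77.5 and 77.5 CPM, lowest in the unsorted library and alike in both sorted libraries. Polo-like kinase plk1, which acts at spindle poles and kinetochores, had 44.4, 46.9 and 55.1 CPM. Aurora A, encoded by aurka, a kinase of the spindle poles, was lower throughout at 19.2, 21.1 and 23.0 CPM.

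Of the cyclins among the members, ccnb1 was the most abundant with 52.6 CPM in the unsorted library, 54.9 in the FACS library and 59.6 in the iced library. Cyclin A2, ccna2, which acts in S phase as well as before mitosis, had 32.9, 39.7 and 44.4 CPM. The second B-type cyclin, ccnb2, had only 7.08, 7.49 and 8.23 CPM. All 3 cyclins had their lowest level in the unsorted library and their highest in the iced library. For ccna2 the intervals of the 3 libraries, 31.3 to 34.5, 37.2 to 42.4 and 42.8 to 46.1 CPM, did not overlap, whereas those of ccnb2, 6.36 to 7.85, 6.42 to 8.69 and 7.53 to 8.98 CPM, did.

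Genes for chromosome structure summed to 119, 132 and 149 CPM. Topoisomerase II alpha, top2a, untangles the copied DNA and had 48.0 CPM (46.1 to 49.9), 51.0 (48.1 to 54.0) and 53.2 (51.4 to 55.1). The condensin ring of smc2 and smc4, with ncapg and ncapd2 as further subunits of condensin, compacts the chromosomes. Within this complex smc2 was the highest, with 24.6, 29.1 and 38.5 CPM, and its 3 intervals did not overlap. Its partner smc4 had 13.1, 17.9 and 18.0 CPM, low in the unsorted library and equal in the sorted libraries. The other subunits, ncapg with 19.4, 19.4 and 23.0 CPM and ncapd2 with 13.6, 14.4 and 15.8 CPM, changed less.

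The chromosomal passenger complex corrects faulty attachments and later moves to the cleavage plane. Its kinase aurkb, Aurora B, had 77.2 CPM (74.8 to 79.6) in the unsorted library, 87.9 (84.2 to 91.8) in the FACS library and 90.5 (88.1 to 92.9) in the iced library. In each library its interval lay far above that of the other Aurora kinase, aurka. The subunit birc5a, survivin, had 38.5, 41.4 and 42.5 CPM. Borealin, cdca8, went the other way with 43.6, 39.0 and 34 CPM, and its intervals, 41.8 to 45.4, 36.5 to 41.6 and 32.6 to 35.5 CPM, did not overlap. Of the 3 measured subunits, cdca8 was thus above birc5a in the unsorted library and below it in the iced library.

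Kinetochore and checkpoint genes summed to 242, 256 and 282 CPM. The checkpoint protein gene mad2l1 was the second most abundant member of all in the unsorted library, at 102 CPM (99.1 to 105), with 99.7 (95.7 to 104) and 104 (102 to 107) in the sorted ones, which are overlapping values. The checkpoint kinase ttk had 9.76, 9.79 and 10.2 CPM and bub1 only 16, 12 and 44 UMIs in all. Among the structural genes, cenpf had 38.2, 40.8 and 57.0 CPM, high in the iced library only. The Ndc80 complex, the coupling to microtubules, was represented by spc25 with 34.7, 38.6 and 41.7 CPM, ndc80 with 12.8, 15 and 14.6 CPM and nuf2 with 11.2, 12.8 and 15.7 CPM. The kinetochore motor cenpe had 18.1, 16.8 and 17.2 CPM. The gene knstrn, whose product binds kinetochores and spindle microtubules, was low in the unsorted library with 14.8 CPM and had 21.6 and 20.3 CPM in the sorted libraries.

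The spindle genes summed to 267, 264 and 302 CPM. Importin alpha, kpna2, which holds spindle factors until they are released near chromosomes, had 101 CPM (98.5 to 104), 87.8 (84.0 to 91.7) and 92.5 (90.1 to 94.9), and was the highest of the group. The microtubule bundler nusap1 had 56.9 CPM (54.9 to 59.1), 63.3 (60.1 to 66.6) and 71.3 (69.2 to 73.4), with no overlap. The Aurora A activator tpx2 had 35.1, 38.0 and 38.7 CPM and the motor kif11 had 28.1, 30.0 and 37.6 CPM. The spindle factor dlgap5 had 33.1, 32.3 and 49.2 CPM, so the iced library lay well above both others. The microtubule-binding hmmr hardly differed, at 13.0, 12.7 and 13.2 CPM.

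Exit from mitosis was represented by ube2c and cdc20, the ubiquitin-conjugating enzyme and the activator of the anaphase-promoting complex. With 182 CPM (178 to 185) in the unsorted library, 159 (154 to 164) in the FACS library and 167 (164 to 170) in the iced library, ube2c led the members in every library. Its partner cdc20 had 38.5, 37.5 and 43.1 CPM. The genes for the midzone and cytokinesis were the lowest group with 70.4, 72.4 and 78.1 CPM for 7 genes. The motor kif23 had 14.2, 14.5 and 15 CPM and racgap1, with which it forms centralspindlin, had 8.35, 9.96 and 8.21 CPM. The motor kif20a had 10.0, 10.1 and 10.3 CPM, the scaffold anln had 10.1, 10.0 and 10.4 CPM, and the exchange factor ect2 had 6.68, 6.88 and 6.61 CPM. Of these genes, kif23, kif20a, anln and ect2 were almost flat over the libraries.

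Zebrafish carry a pair of genes for the microtubule bundler PRC1, and these differed. The gene prc1a had 10.9 CPM (9.96 to 11.8), 9.74 (8.51 to 11.1) and 11.4 (10.6 to 12.3), with overlapping intervals. The gene prc1b had 10.2 CPM (9.31 to 11.1), 11.2 (9.89 to 12.7) and 16.1 (15 to 17.2), and only the iced library was high. How reads that fit both copies were counted was not tested.

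In the sums over all cells, a smaller share of the members than of all genes passed 1.5-fold at a limit of 50 UMIs over both libraries. Of 14347 genes with at least 50 UMIs over the FACS and unsorted libraries, 8.48% were at least 1.5-fold higher and 11.8% at least 1.5-fold lower in the FACS library, and 0 of 38 members were either, bub1 being under the limit of 50 UMIs. For iced over unsorted, 3 of 39 members were at least 1.5-fold higher and 0 lower, while 23.7% of 16027 genes were higher and 9.35% lower. For iced over FACS, 1 of 39 members was higher and 0 lower, while 17.7% of 15185 genes were higher and 2.94% lower. The median ratio of the members was 1.06, 1.15 and 1.05 in these comparisons and that of all genes tested 1.03, 1.17 and 1.12. Ratios above 1 were found for 27 of 38, 33 of 39 and 33 of 39 members, beside 55.8, 69.1 and 71.5% of all genes. With equal weight of the cell types tabled in all libraries, the median ratios of the members over the unsorted library were 0.579 and 0.650. Those of all genes were 1.03 and 1.21. Of 39 members, 29 and 23 were then at least 1.5-fold lower, beside 17.9 and 9.04% of all genes. This weighting leaves out the clusters named for proliferation in the sorted libraries. These held 43.5 and 18.9% of mitosis reads in the FACS library and 41.1 and 24.8% in the iced library. No such cluster was tabled in the unsorted library, so the ratios under this weighting set unlike groups of cells against each other. Over all cells, the shift of the members towards higher levels in the sorted libraries was thus about that of all genes, and the comparisons share libraries, so they do not count as separate evidence.

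The members with ratios past 1.5 were few. For iced over unsorted they were bub1 with a ratio of 2.26 (1.25 to 4.29) that rests on 44 and 16 UMIs, prc1b with 1.58 (1.42 to 1.77) and smc2 with 1.56 (1.46 to 1.67), and cenpf followed with 1.49 (1.41 to 1.58). For iced over FACS it was dlgap5 with 1.52 (1.40 to 1.65), followed by prc1b with 1.44 (1.25 to 1.65) and cenpf with 1.40 (1.30 to 1.5). For FACS over unsorted the largest ratios were those of knstrn with 1.46 (1.30 to 1.64), smc4 with 1.37 (1.21 to 1.55) and ccna2 with 1.21 (1.11 to 1.31). At the low end kpna2 had 0.867 (0.823 to 0.913), ube2c 0.874 (0.841 to 0.908) and cdca8 0.894 (0.826 to 0.967) in that comparison. The same 3 genes were lowest for iced over unsorted, where cdca8 had 0.780 (0.734 to 0.829), kpna2 0.914 (0.880 to 0.949) and ube2c 0.920 (0.894 to 0.946). For iced over FACS the lowest ratio was that of racgap1 with 0.825 (0.704 to 0.968), which rests on 230 UMIs in the FACS library, and among members with at least 250 UMIs in each library, cdca8 had 0.873 (0.807 to 0.945), knstrn 0.943 (0.849 to 1.05) and ndc80 0.963 (0.850 to 1.09). Counting error alone left 25 of 38, 10 of 39 and 21 of 39 members with an interval that included 1.

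By role, the ratio of iced over unsorted was 1.25 (1.21 to 1.29) for chromosome structure and 1.22 (1.2 to 1.25) for entry into mitosis, at the upper end. It was 1.17 for kinetochore and checkpoint, 1.13 for the spindle, 1.11 for cell division and 1.05 for the passenger complex. Exit from mitosis was lowest with 0.954 and was the only group below 1. For FACS over unsorted the ratios ran from 1.11 for chromosome structure, again the highest, down to 0.892 for exit. With only 2 genes, the exit group largely repeats ube2c.

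Of the other genes known to act in mitosis, 57 of 60 listed were found and 56 passed the limit. In the comparisons FACS over unsorted, iced over unsorted, and iced over FACS, 0, 7 and 3 of them were at least 1.5-fold higher and 0 were lower, with median ratios of 1.12, 1.23 and 1.13. At the limit of 50 UMIs over both libraries, the shares that were higher lay below those of all genes. The most abundant were the cohesin subunit rad21a with 107, 114 and 112 CPM, the checkpoint gene bub3 with 70.4, 85.5 and 88.7 CPM and the Cdk-binding cks1b with 74.6, 73.0 and 77.5 CPM. Genes for DNA replication, the step before mitosis, had medians of 1.15, 1.40 and 1.22. Of 50 genes, 5, 18 and 6 were at least 1.5-fold higher and 0 lower. Beside the 8.48, 23.7 and 17.7% of all genes, their share was clearly above that of all genes only for iced over unsorted, near it for FACS over unsorted and below it for iced over FACS. Their leading genes were the polymerase clamp pcna with 303, 421 and 504 CPM, the nucleotide reductase subunit rrm2 with 220, 282 and 364 CPM and rpa3 of the single-strand binding complex with 182, 167 and 185 CPM. For 20 chromatin, tubulin and nuclear genes of dividing cells 0, 1 and 0 were higher, with medians of 1.05, 1.16 and 1.11, led by hmgn2 with 4633, 4848 and 5466 CPM, h2afvb with 1788, 1924 and 2063 CPM and hmgb2b with 1573, 1626 and 1798 CPM.

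The authors' tables of reads per cell type gave the place of the mitosis transcripts in the larva. These 43 tables cover 14, 15 and 14 cell types, and values are RPM, reads of the members per 1000000 reads of the table. They are sums over the cells of a type and reads, not molecules, so their intervals cover the counting of reads only. The cell types are the authors' clusters, made on these same cells with these genes among all others, so a high value in a cluster named for proliferation is a description and no test of it.

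In the unsorted library, the retina had the highest level of mitosis reads, 2885 RPM (2849 to 2922). The pharyngeal arch followed with 2203, then the epidermis with 1886 and the nervous system with 1623. Cartilage with 1483, blood vessels with 1444 and macrophages with 1333 came next, and muscle had 1090. At the low end were pharynx with 656, head muscle with 260 and blood with 259 RPM. Blood reached 667 when haemoglobin reads were left out of its total. Head muscle and blood were thus last, muscle lay in the middle of the order, and no cell type was without mitosis reads. The part of RNA from other cells in these reads was not tested.

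In both sorted libraries the authors' annotation held clusters named for proliferation, and these stood far above the rest. In the FACS library, the proliferating pharyngeal arch had 6593 mitosis RPM (6533 to 6654) and the proliferative region 5838 (5803 to 5874). The retina followed with 1925, the epidermis with 1024, and the nervous system was last with 220.2 RPM. In the iced library, the proliferative region had 3509 (3489 to 3529), the proliferating pharyngeal arch 3387 (3362 to 3413), the retina 1445 and the epidermis 1111, and the nervous system was again last with 213. The proliferative region held 43.5% of all mitosis reads in the FACS library and 41.1% in the iced library, with 8.95 and 15.9% of all reads of these libraries. The proliferating pharyngeal arch held another 18.9 and 24.8%, with 3.45 and 9.92% of all reads. In the unsorted library, where no such cluster was tabled, the nervous system held 41.9% of mitosis reads and 33.3% of all reads.

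**Figure D2:**
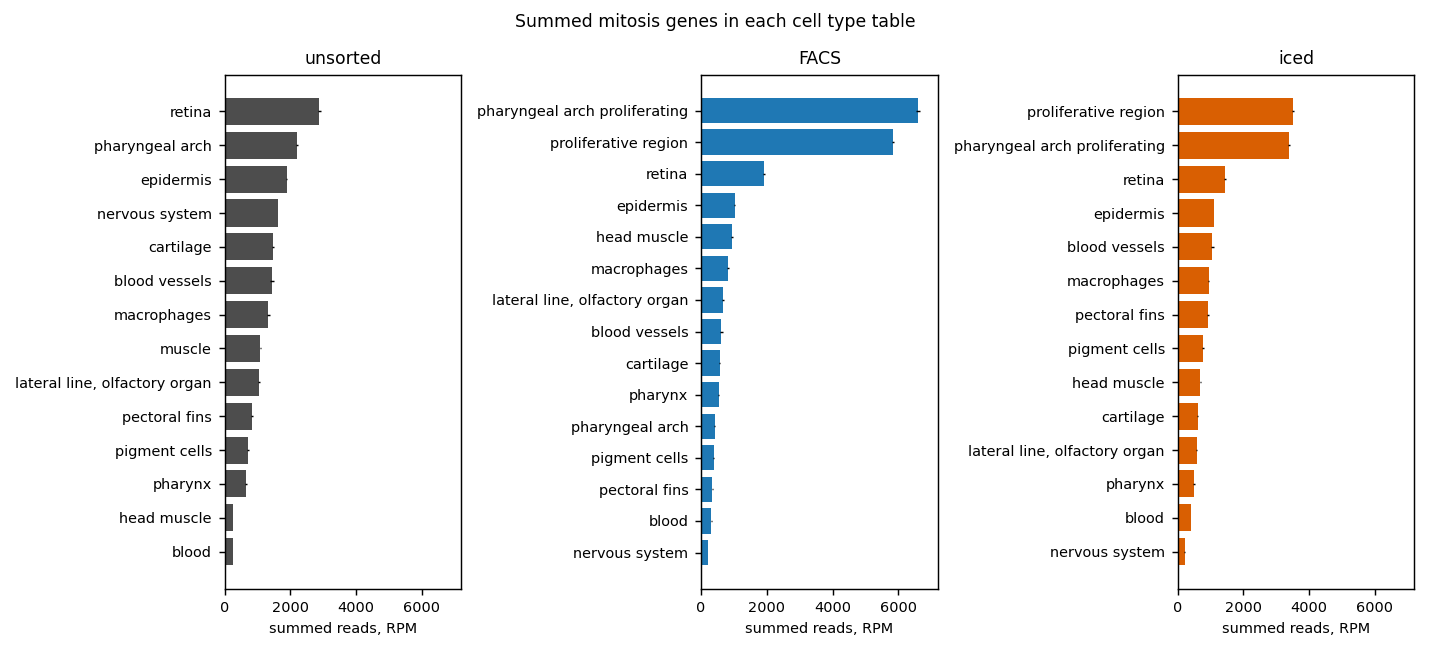
Mitosis reads in RPM in each cell type table, 1 panel per library, with cell types ordered by value and thin lines for the 95% Poisson interval of the read count. The retina leads in the unsorted library with 2885 RPM, whereas the clusters named for proliferation lead in the sorted libraries, with 6593 and 5838 in the FACS library and 3509 and 3387 in the iced library.

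Most single genes followed the sum. For ube2c the unsorted library had 396 RPM in the retina, 332 in the pharyngeal arch, 237 in the nervous system and 32.1 in blood. In the FACS library the same gene had 1021 in the proliferating pharyngeal arch, 719 in the proliferative region, 197 in the retina and 20.7 in the nervous system. The marker mki67 had 371, 361, 117 and 19.6 RPM in these 4 tables. The cytokinesis scaffold anln had 41.5, 34.4, 9.15 and 0.436, and its 0.436 rests on 20 reads. Of these 4 tables, the genes named here were thus highest in the proliferating pharyngeal arch, followed by the proliferative region. In the unsorted library 27 of 39 members had their highest value in the retina, in the FACS library 38 of 39 in the proliferating pharyngeal arch or the proliferative region, and in the iced library 39 of 39 in these. The share of all genes with their highest value in the same clusters was not counted, so these counts have no background.

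Beside the nervous system of the same library, the proliferative region had 26.5 times the mitosis RPM in the FACS library (26.0 to 27.1) and 16.4 times in the iced library (16.1 to 16.8). All 37 members with at least 20 reads in the nervous system were higher there in the FACS library, from spc25 at 9.94 to anln at 79.0 times. In the iced library it was all 38, from smc4 at 5.46 to aurka at 39.7 times. The share of all genes that were higher in a cluster named for proliferation was not counted, so the counts of members in this paragraph have no background. The DNA replication genes differed less between these tables, with medians of 3.11 and 5.03 times. In the pharyngeal arch in the FACS library the lists went apart. The proliferating arch had 15.9 times the mitosis reads of the pharyngeal arch proper (15.6 to 16.3), higher in 38 of 38 members from smc4 at 2.23 to nusap1 at 61.0 times. DNA replication genes were higher in the proliferating arch for only 2 of 45 genes, with a median of 0.412. So the cluster named for proliferation had the higher level of mitosis transcripts, 6593 RPM beside 414 in the arch proper. The arch proper had the higher RPM for most replication genes.

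Comparing the same named cell type between libraries is limited by this annotation. Over the 12 cell types tabled in every library, the summed members were higher in the FACS library than in the unsorted library in 2 and higher in the iced library than in the unsorted library in 4. In the nervous system the ratios were 0.136 and 0.131, and 0 of 35 and 0 of 34 members were above 1, while the median gene there had 1.06 and 1.18. When the proliferative region was joined with the nervous system, the levels were 1623, 1802 and 1595 RPM and the ratios over unsorted 1.11 and 0.983. The joined pharyngeal arch had 1938 RPM in the FACS library beside 2203 in the unsorted library, a ratio of 0.880. In the iced library only the proliferating arch was tabled, with 3387 RPM, so nothing could be joined there and its ratio of 1.54 sets unlike groups of cells against each other. The joining was chosen after the values had been seen, and whether the proliferative region consists of nervous system cells was not tested.

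Across the 43 tables, the members varied together. The Pearson correlation of log2(RPM + 1) of a member with the sum of the others had its highest values for ube2c with 0.972 and mad2l1 with 0.969, and its lowest for ncapd2 with 0.727 and bub1 with 0.541. The tables share libraries and differ in depth and cell number, and no p-value is given. With the sum of all members, the median correlation was 0.878 over 38 members, 0.769 over the other mitosis genes, 0.730 over the chromatin list, 0.463 over the replication genes and 0.175 over all 10934 genes ranked. Outside the members, the pattern most like theirs belonged to cks1b with 0.951, si:ch211-69g19.2 with 0.940, hmgb2a with 0.924, kifc1 with 0.916 and kmt5ab with 0.914. Then came sgo1 with 0.893, cks2 with 0.891, cenpw with 0.882, pane1 with 0.880 and ccnb3 with 0.879. Of these 10 genes, cks1b, kifc1, sgo1, cks2, cenpw and ccnb3 were on the list of other mitosis genes, and hmgb2a was on the chromatin list.

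Transcripts of the members also met in single cells. Because the libraries differ in depth, each cell with at least 2000 UMIs was thinned to 2000, which left 6355, 3281 and 7412 cells and left out 4688, 1328 and 2138 as too shallow. Of these, 25.7% (24.6 to 26.8) in the unsorted library, 20.8% (19.4 to 22.2) in the FACS library and 21.3% (20.4 to 22.3) in the iced library held at least 3 of the 39 members. Without thinning the shares were 26.0, 23.5 and 30.9% of all cells, so the place of the iced library changed with thinning. Thinning lowers the depth and also leaves out shallow cells, in unlike numbers, and these parts were not told apart. Before thinning, the kept cells with at least 3 members had medians of 5726, 6137 and 8708 UMIs. The other kept cells had 4269, 4142 and 4763. No mitosis gene at all was found in 46.1, 60.2 and 53.8% of the thinned cells. At least 10 members were held by 402, 242 and 438 cells, or 6.33, 7.38 and 5.91%, and the richest cell of each library held 23, 24 and 29. The limit of 3 cuts a smooth range, as 500, 156 and 489 cells held 2 members and 340, 100 and 283 held 3.

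Sets of cells chosen by markers were set beside these shares. Cells with at least 5 thinned UMIs of neuron markers and none of neural progenitor markers held at least 3 members in 29 of 334 cells (8.68%), 26 of 420 (6.19%) and 51 of 957 (5.33%). Their median depth before thinning was 2587, 2772.5 and 3272 UMIs. Cells with at least 5 thinned UMIs of neural progenitor markers reached 40.5, 35.7 and 34%, at median depths of 4192.5, 4116.5 and 5586 UMIs. The progenitor list includes the cell cycle gene ccnd1. Leaving out cells with a UMI of that list can take cycling cells out of the neuron set and gather them in the progenitor set. The gap between these sets is thus partly fixed by their definition, and the neuron set is no independent background. Erythroid cells had 4.38, 7.02 and 7.82%. Cells in which contractile muscle markers made up 5% or more of the UMIs held at least 3 members in 42 of 157 cases (26.8%) in the unsorted library, with at most 6 members in a cell, and the sorted libraries had only 4 and 9 such cells. The share in muscle cells was about that of all cells of the unsorted library. The part of RNA from other cells in the higher share in the unsorted library was not tested, and at the limit of 10 members the FACS library was highest.

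For single genes, the share of all cells with a UMI was largest for ube2c with 21.5, 17.0 and 22.9% and for mki67 with 18.0, 17.1 and 23.2%. After thinning it was 19.3, 14.0 and 13.9% for ube2c and 13.5, 11.1 and 12.6% for mki67. Both genes had their highest share in the iced library only in the unthinned cells, which are deepest there. Other abundant members after thinning were mad2l1 with 14.2, 12.6 and 11.4%, aurkb with 11.9, 11.2 and 10.7%, kpna2 with 11.9, 8.38 and 8.96% and cdk1 with 10.1, 9.45 and 9.24%. The shares of nusap1 were 9.65, 8.96 and 8.20%, those of ccnb1 8.42, 7.53 and 7.19%, and those of top2a 7.90, 6.89 and 7.07%. The thinned shares were 7.41, 6.19 and 6.50% for plk1, 6.12, 5.55 and 6.49% for cenpf, and 6.67, 6.19 and 5.59% for birc5a. Of these 12 members 11 had their highest thinned share in the unsorted library, the exception being cenpf. How many of all genes had their highest thinned share there was not counted, so whether this order is particular to the members was not tested.

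Cells with one member tended to hold others. Of the thinned cells with ube2c, 80.7, 85.6 and 80.7% held at least 2 other members, and of those with top2a 86.9, 91.2 and 88.4%. Over the 38 members other than bub1 this share ran from 76.3% for ncapg to 91.9% for aurka in the unsorted library. In the sorted libraries it ran from 73.1% for spc25 to 98.2% for ttk in the FACS library, and from 65.6% for smc4 to 93.6% for anln in the iced library. Pairs of members were found in the same cell more often than independent detection gives in all 567, 386 and 554 pairs for which at least 5 cells were expected. The median excess was 3.39, 4.40 and 4.11 times. The pairs with the largest excess all held aurka, with kif11 at 6.07 times in the unsorted library, with cenpf at 7.21 in the FACS library and with prc1b at 8.10 in the iced library. The smallest were prc1a with spc25 at 1.93, nusap1 with smc4 at 2.42 and tpx2 with smc4 at 1.94 times. Differences between cells in type and quality enter these ratios as well as the cell cycle. Pairs of other genes were not counted, so whether this excess is particular to the members was not tested.

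**Figure D3:**
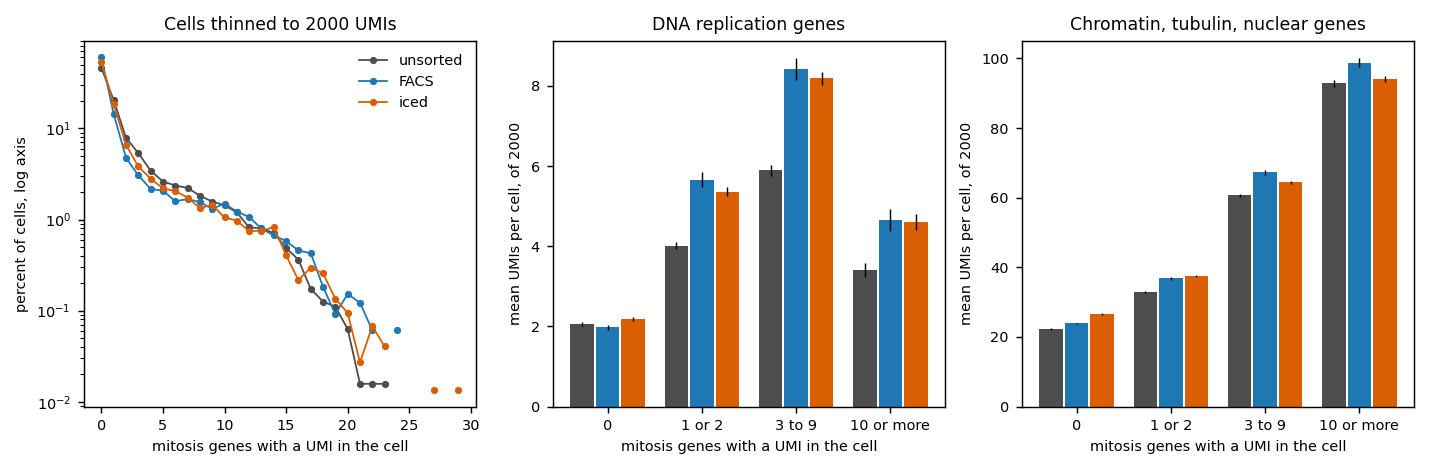
Left, percent of cells (log axis) by the number of mitosis genes with a UMI, after thinning every cell to 2000 UMIs, for each library. The other panels give the mean UMIs per cell of the DNA replication genes and of the chromatin list for cells with 0, 1 or 2, 3 to 9, and 10 or more mitosis genes, with 95% Poisson intervals. Replication UMIs are highest in the cells with 3 to 9 mitosis genes (5.89, 8.42 and 8.19) and lower in those with 10 or more (3.40, 4.65 and 4.60), while chromatin UMIs are highest in the last class (92.9, 98.8 and 94.2).

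Cells that held most mitosis genes did not hold most replication transcripts. In cells with 0, 1 or 2, 3 to 9, and 10 or more members, the mean UMIs of the replication genes were 2.07, 4.01, 5.89 and 3.40 in the unsorted library. They were 1.97, 5.65, 8.42 and 4.65 in the FACS library, and 2.18, 5.37, 8.19 and 4.60 in the iced library. The fall in the last class was seen in each library and was wider than the counting intervals, 5.76 to 6.03 against 3.22 to 3.59 in the unsorted library. The clamp gene pcna alone had 0.331, 0.735, 1.1 and 0.473 UMIs per cell in the 4 classes in the unsorted library, 0.389, 1.16, 1.78 and 0.686 in the FACS library and 0.397, 1.1, 1.70 and 0.721 in the iced library.

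Other genes of dividing cells were higher in each further class. The chromatin list had 22.3, 33.0, 60.7 and 92.9 UMIs per cell in the unsorted library, 23.9, 36.9, 67.3 and 98.8 in the FACS library and 26.6, 37.4, 64.4 and 94.2 in the iced library. The other mitosis genes went from 0.859 to 7.89 UMIs between the first and the last class in the unsorted library, from 0.860 to 8.83 in the FACS library and from 0.949 to 8.77 in the iced library. The chromatin protein gene hmgb2a had 1.19 UMIs in cells of the unsorted library without a member and 11.5 in those with 10 or more, and it was found in all of the 402 cells of the last class. The tubulin gene tuba8l went from 0.221 to 2.34 and cks1b from 0.0328 to 0.649 UMIs. The classes were made from the members, and the other lists share no gene with them.

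The members also differed among themselves in how much replication RNA their cells held. In cells with the gene and at least 2 other members, the same 7 genes had the highest means in each library, the 4 condensin genes, spc25, nuf2 and ccna2. The mean replication UMIs were 6.37, 9.28 and 9.69 for smc2, 7.71, 9.55 and 8.60 for smc4, 7.45, 10.4 and 7.79 for ncapd2 and 6.02, 7.51 and 7.99 for ncapg. They were 5.84, 8.69 and 7.43 for spc25, 5.51, 8.17 and 8.30 for nuf2 and 5.74, 7.95 and 8.01 for ccna2, so that within these 7 genes only smc2 and smc4 were among the highest 3 in each library. Low means were those of cdc20 with 3.41, 4.42 and 4.41, prc1b with 3.70, 3.44 and 4.41, kif11 with 3.18, 4.47 and 5.17 and aurka with 3.73, 4.12 and 5.11. Cells with condensin or cyclin A2 transcripts thus held more replication RNA than cells with transcripts of cdc20, prc1b, kif11 or aurka. These 4 were not the lowest everywhere, as kif11 ranked 38, 32 and 30 of 38. The cells also differed in their mean number of other members. In the unsorted library it was 7.12 for smc2, 6.88 for smc4, 7.01 for ncapd2, 7.04 for ncapg and 7.77 for ccna2. It was 8.69 for cdc20, 9.80 for prc1b, 9.20 for kif11 and 9.04 for aurka. The part of this difference was not tested. The order over the 38 members was much the same in the 3 libraries, with Spearman correlations of 0.912 between the FACS and unsorted libraries, 0.889 between the iced and unsorted libraries and 0.902 between the sorted libraries.

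**Figure D4:**
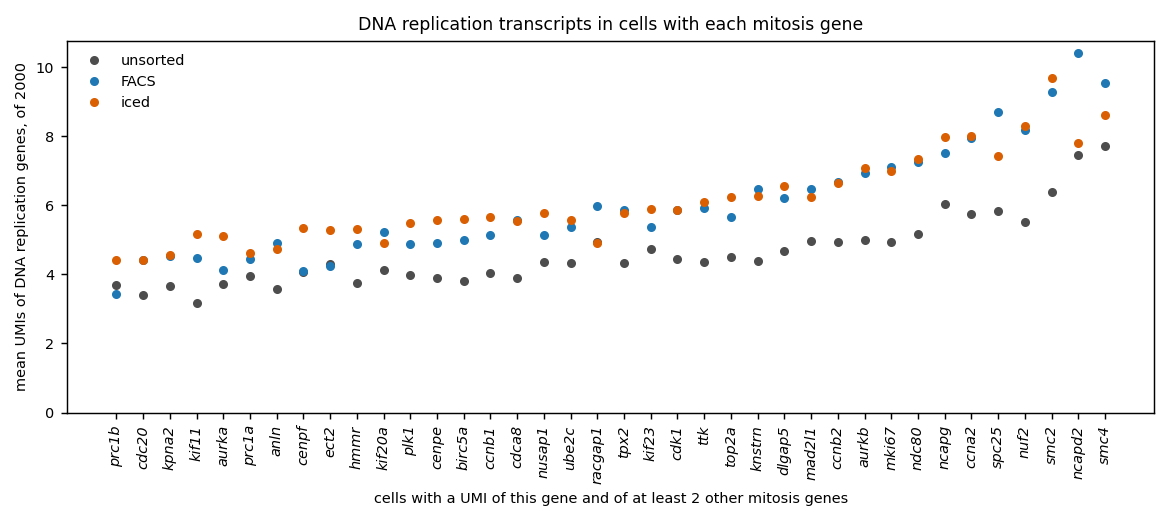
Mean UMIs of the DNA replication genes, out of 2000 UMIs per cell, in cells that hold the gene named on the horizontal axis and at least 2 other mitosis genes, for each library. Genes of condensin, spc25, nuf2 and ccna2 lie at the high end in all 3 libraries (smc2 6.37, 9.28 and 9.69). The genes cdc20, prc1b, kif11 and aurka lie lower (cdc20 3.41, 4.42 and 4.41), though not always lowest. The number of other members in the cells differs between genes.

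Labelling during dissociation was read in several ways. The authors' tables give, for each gene, the rate at which a reference T was read as C, and the median over 38 members with at least 250 reads was 0.244, 0.328 and 0.417% in the 3 libraries. The median of all genes with at least 250 reads was 0.190, 0.223 and 0.296%, and 22, 27 and 21 of 38 members were above it. For the mean of the 11 other substitution types, the members had 0.0940, 0.105 and 0.113% and all genes 0.0850, 0.0802 and 0.0915%. With reads as weights, the members had 0.266, 0.321 and 0.336% and all genes 0.278, 0.302 and 0.330%. Whether the members lay above all genes therefore changed with the weighting in the unsorted library. The rate was higher in the FACS library than in the unsorted library in 24 of 38 members (58.7% of all genes), higher in the iced library than in the unsorted library in 29 (73.1%) and higher in the iced library than in the FACS library in 26 (66.3%). The A-to-G rate, which the label does not change, was higher in 18, 22 and 24 of 38 members in the same comparisons, so for iced over FACS the T-to-C count was hardly above that of A-to-G.

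T-to-C rates of single members carried more than the label. The highest in the iced library was that of ttk with 1.03%, preceded by 0.757 and 0.871% in the other libraries, and its A-to-G rate, which the label does not change, was 0.862, 0.781 and 1.04%. High A-to-G rates were also found in ndc80 with 2.03, 1.98 and 1.90%, racgap1 with 1.43, 1.89 and 1.61%, ncapg with 1.49, 1.43 and 1.37% and plk1 with 1.14, 1.04 and 1.13%. No filter for sequence variants is stated for these single-cell tables, and the part of variants was not tested. The next highest T-to-C rates were those of cdc20 with 0.703, 0.908 and 0.974% and top2a with 0.378, 0.701 and 0.767%, whose A-to-G rates were at most 0.127 and 0.140%. The lowest were those of ube2c with 0.0282, 0.0259 and 0.0305%, mad2l1 with 0.0535, 0.0434 and 0.0619% and aurkb with 0.0373, 0.0305 and 0.0639%. These 3 genes were all among the 5 members with most UMIs.

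The second reading counts cells. A gene was called labelled in a cell by the authors when at least 1 of its UMIs carried 2 or more T-to-C substitutions. No filter for sequence variants is stated for these calls either, and the part of variants in them was not tested. Of the detections of a member in a cell, 865 of 36701 were labelled in the unsorted library, or 2.36% (2.20 to 2.52), 516 of 15429 in the FACS library, or 3.34% (3.07 to 3.64), and 1452 of 42639 in the iced library, or 3.41% (3.24 to 3.58). Over all genes without haemoglobin the shares were 2.63, 3.52 and 3.99%. Members with at least 1.2 UMIs per cell that held the gene had 2.45, 3.35 and 3.41%. All genes with 1.2 to 5 such UMIs had 2.40, 2.86 and 3.27%. The 7, 3 and 2 members under 1.2 UMIs had 1.12, 3.10 and 2.72%, beside 2.24, 2.93 and 3.27% of all such genes. Whether the members lay below all genes thus depended on the genes set beside them. The unsorted library was thus lowest for the members as for all genes, and the sorted libraries, which met 4sU again in the receiving tube, had overlapping intervals.

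Within the members the spread was wide, and the part of sequence variants in it was not tested. In the unsorted library nusap1 was labelled in 244 of 1450 cells, 16.8% (14.9 to 18.9), in the FACS library in 132 of 565, 23.4% (19.9 to 27.1), and in the iced library in 247 of 1589, 15.5% (13.8 to 17.4). The gene prc1b followed with 14.5, 18.5 and 12.4%, and its partner copy prc1a had 10.2, 7.82 and 8.29%. The share of top2a went from 5.22% (4.06 to 6.60) over 9.40% (7.06 to 12.2) to 12.7% (11 to 14.5). For anln the shares were 8.29, 6.52 and 7.0% and for mki67 3.20, 5.11 and 6.60%. At the other end in the iced library were spc25 with 0.324, 0.174 and 0.387%, ube2c with 0.0828, 0.123 and 0.444% and smc4 with 0.178, 0.633 and 0.566%. So ube2c, found in 2415 cells in the unsorted library, was labelled in only 2 of them. Among the cyclins, ccnb1 had 1.32, 1.97 and 1.2%, ccna2 1.47, 2.01 and 3.39% and ccnb2 0 of 320 cells, 3.36 and 2.92%, where 0 of 320 allows a share of up to 0.938% by the limit of 3 counts and up to 1.15% by the exact interval. The Aurora kinases had 1.51, 2.60 and 4.80% for aurka and 0.164, 0.250 and 0.733% for aurkb.

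Because a cell with more UMIs of a gene has more chances to be called, the shares were also taken over detections of exactly 1 UMI, a measure chosen after the data had been seen. Members then had 1.67% (1.51 to 1.85), 2.06% (1.77 to 2.39) and 1.93% (1.75 to 2.11), and all genes 1.72, 2.21 and 2.48%. As medians over genes with at least 50 such detections, the members had 0.812, 2.03 and 1.46% and all genes 0.801, 1.08 and 1.49%, so in the FACS library the members lay above all genes by the median and not by the pooled share. DNA replication genes had 2.89, 3.31 and 3.27%, other mitosis genes 1.02, 1.38 and 1.34% and the chromatin list 0.508, 1.04 and 0.828%. The order of the leading members stayed close, with nusap1 at 10.7, 10.5 and 7.51%, prc1b at 12, 9.68 and 7.88%, prc1a at 9.24, 7.75 and 5.79% and anln at 7.55, 4.11 and 6.98%. On this scale top2a had 3.19, 3.63 and 6.69%, so its high value was that of the iced library. For ube2c, 0 of 1115, 0 of 278 and 1 of 888 such cells were labelled. Among all genes with at least 50 such detections, nusap1 lay at percentile 96.5, 95.4 and 91.2.

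**Figure D5:**
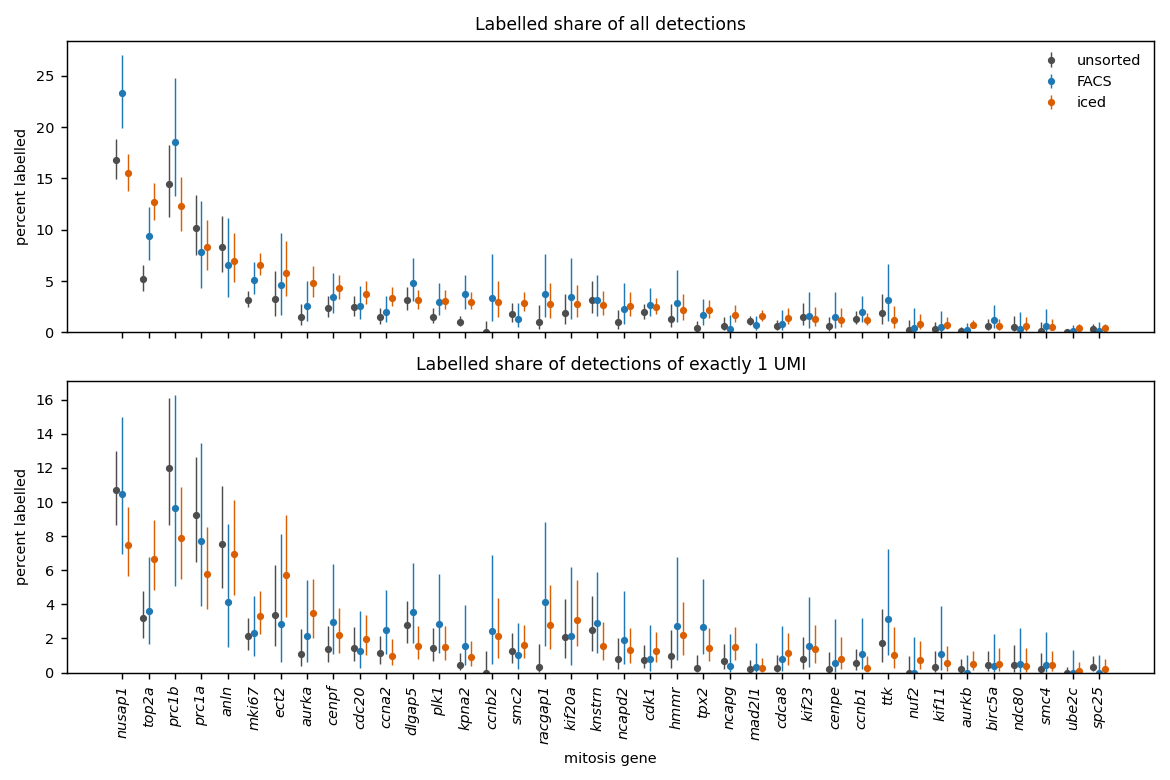
Labelled share of the cells in which each mitosis gene was found, for all detections (top) and for detections of exactly 1 UMI (bottom), with 95% Clopper-Pearson intervals, for the genes with at least 50 detections. In both panels nusap1, prc1b, prc1a and anln lie at the high end and ube2c at or near 0.

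The T-to-C rate and the labelled share did not pick the same genes. Both were high for nusap1, with rates of 0.912, 0.992 and 0.624%, and both were low for ube2c. The genes cdc20, cdk1 and dlgap5 had high rates, in the case of cdk1 0.593, 0.559 and 0.714%, but labelled shares not far from that of all members, 1.95, 2.71 and 2.47% for cdk1. For spc25 the rate was 0.565, 0.508 and 0.525% with almost no labelled cells, and its A-to-G rate was 0.512, 0.371 and 0.370%. The study set limits of at least 250 reads and 10% of them labelled, applied within single cell types. Its main text gives the 10% as a share of UMIs. Here the same limits were applied to labelled entries over reads, both summed over all cell types of a library, which is not the measure of the study. By these sums no member reached 10%, the largest value being that of prc1b with 3.25% in the unsorted library. Of all genes, 0.592, 0.310 and 0.940% reached it. Whether a member passes within a single cell type was not tested.

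Labelled shares were also set against the number of members in a cell. By the number found after thinning, 0, 1 or 2, 3 to 9, and 10 or more, the labelled share of single-UMI detections of members was 1.06, 1.36, 1.88 and 1.96% in the unsorted library. It was 1.23, 1.31, 1.92 and 2.71% in the FACS library and 1.24, 1.70, 2.09 and 2.05% in the iced library. The values were lowest in cells with none in each library, but the intervals of these cells overlapped those of the cells with 10 or more. In the iced library the cells with 3 to 9 members, with 1.80 to 2.40%, lay just above those with none, with 0.835 to 1.78%. For genes other than the members, over all their detections, the median labelled share per cell hardly differed between the classes. It was 2.77, 2.68, 2.91 and 2.82% in the unsorted library, 3.64, 3.64, 3.87 and 3.76% in the FACS library and 3.91, 3.98, 4.15 and 4.03% in the iced library. Single members differ widely in labelled share, and the part of their mix in each class was not tested.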

How the data were processed

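Single-cell libraries of 4sU-labelled larvae were analysed as deposited. The authors mapped reads with Cell Ranger 6.1.1 to GRCz10, added mismatch tags with SAMtools 1.14 (bcl2fastq 2.19 for demultiplexing), and deposited UMI counts per gene and cell, which were used without change. Per cell type, the authors also deposited read counts and, per gene, a ratio of substitutions to reference bases for 12 types, and per cell the genes found and labelled. Their labelled-read tables count entries that do not match reads or UMIs, and were used only for the limits of 250 reads and 10%, summed over cell types, and for alternatives. The members and lists were chosen with earlier results of these data known. Ratios between libraries required 50 UMIs over both, and a call 1.5-fold. Cells were thinned to 2000 UMIs (seed 1) without a doublet caller, and the scripts were tested on simulated data. Named genes were the 12 members with most UMIs, the 3 largest and 3 smallest per ratio (with at least 250 UMIs in each library), rate and labelled share, the cyclins, Aurora kinases and prc1 genes, the 10 most alike genes, and the 3 most abundant of each list. The alternatives changed the total, the UMI limit, the cells kept, the weight of cell types, thinning, the number of members, the labelling measure and, after seeing the data, joined cell types, at least 10 members and detections of exactly 1 UMI. Sequence features were not analysed here. Tools were python 3.11.15, numpy 2.4.6, scipy 1.17.1, pandas 2.3.3 and matplotlib 3.10.9.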

Additional observations from a re-analysis of the deposited data

Results flagged for a closer look

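The summed mitosis genes went in opposite directions in different cell types under the same comparison. For FACS over unsorted the ratio of RPM was 3.59 in head muscle and 0.136 in the nervous system. For iced over unsorted it was 2.69 in head muscle and 0.131 in the nervous system. In head muscle the median ratio of all genes with at least 50 reads in each library was also high, 2.06 and 2.1. In the nervous system it was 1.06 and 1.18. RPM are shares of the reads of a table, so a median above 1 goes with other genes taking a smaller share. Which genes these were was not tested. In the sorted libraries the authors tabled a proliferative region apart from the nervous system, and the unsorted library has no such table. Whether cells of that region would otherwise count as nervous system was not tested. For iced over FACS the ratio was 2.71 in pectoral fins, where only 10 members had at least 50 reads in each library, and 0.748 in head muscle. With 1 library per preparation, none of these differences between cell types was tested.

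In the FACS library, barcodes outside the list of cells also held labelled mitosis genes, in 157 of 7249 detections or 2.17% (1.84 to 2.53). These barcodes belong to no comparison made here. A count of 0 would have allowed a share of up to 0.0414%, and no library without 4sU gave a background for this share. In cells the share was 3.34%. For all genes it was 2.68% outside and 3.73% in cells. Mitosis genes made up 1315 of each 1000000 detections outside and 3468 of each 1000000 in cells.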

How the results depend on the processing

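Values are in the order unsorted, FACS, iced, or FACS over unsorted, iced over unsorted, iced over FACS. Summed levels were 1484, 1604 and 1677 CPM without haemoglobin genes in the total, 1473 and 1513 CPM for the unsorted and iced libraries without the 5% of cells with most UMIs, and 1202, 693 and 772 RPM with equal weight of the cell types tabled in all libraries, which leaves out the clusters named for proliferation. Median member ratios without haemoglobin were 1.11 for the first comparison and 1.00 for the last. Without the 5% of cells with most UMIs they were 0.999, 1.04 and 1.02. Divided by the median of all genes, the last comparisons gave 0.985 and 0.940. With equal weight the first comparisons gave 0.579 and 0.650. With the nervous system joined to the proliferative region, the medians were 1.16, 1.00 and 0.897, and with the joined pharyngeal arch 0.907. The corresponding 1.69 and 1.84 use the iced library, where only the proliferating arch was tabled and nothing was joined. The direction of the small shifts between libraries thus changed with the total, the cells and the cell types used. Members at least 1.5-fold higher in the FACS library than in the unsorted library numbered 1 without haemoglobin, with at least 1 UMI in each library, or with equal weight, and 29 were lower with equal weight. Of all genes, 10.8, 16.8 and 20.3% were higher under these settings, and 17.9% were lower with equal weight. For iced over unsorted, 0 were higher without the 5% of cells with most UMIs, 1 when divided by the median or with equal weight, and 1 and 23 were lower under these latter settings. Of all genes, 19.9, 14.1 and 32.0% were higher in that order, and 14.0 and 9.04% were lower under the latter settings. For the last comparison 0 were higher without haemoglobin or when divided by the median, and 5 with equal weight. Of all genes, 14.8, 11.5 and 29.1% were higher in that order.

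Cells with at least 3 members made up 14.4, 12.4 and 14.0% when thinned to 1000 UMIs. Without thinning they made up 23.5 and 30.9% in the sorted libraries, and 19.6% in the iced library without the 5% of cells with most UMIs. With at least 2 members the shares were 33.6, 25.5 and 27.9%, with at least 5 they were 16.9, 15.6 and 14.7%, and with at least 10 they were 6.33, 7.38 and 5.91%. The retina of the unsorted library had 2930 RPM without haemoglobin, the proliferating pharyngeal arch of the FACS library 1938 when joined with the arch, and the proliferative region of the iced library 1595 when joined with the nervous system. The median T-to-C rate minus the A-to-G rate was 0.0291, 0.119 and 0.112%. The labelled share was 0.317, 0.181 and 0.457% as entries over reads, 1.14, 1.33 and 1.32% as entries over UMIs, 1.67, 2.06 and 1.93% over detections of exactly 1 UMI, and 3.19% in the iced library without the 5% of cells with most UMIs. The cause of these changes was not tested. The other 53 values were classed as unchanged, not all of them by an interval given here. Median ratios, median T-to-C rates and counts of members past 1.5-fold were given without an interval. No paired analysis was possible because each group has 1 library, and for the same reason no replicate could be left out.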
